A study of Mus musculus with 4 samples.

Results

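Of the 32285 genes counted in single cells of mouse prostate tumours, 9 encode the cytosolic heat shock chaperones described here: Hspa1a, Hspa1b and Hspa8 (HSP70 family), Hsph1 (HSP110 family), Hsp90aa1 and Hsp90ab1 (HSP90 family), Hspb1 (small heat shock protein), and Dnajb1 and Dnaja1 (J-domain proteins). They were found in the files by symbol and were chosen by measured values of these data, by a rule that took Hspa1a to differ between genotypes in neutrophil-like and not in fibroblast-like cells, although in the classes built here its TKO libraries lay below its DKO libraries in fibroblast-like cells. Values of those 2 cell classes are therefore given as descriptions without a test, and the tests below use the other classes.

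TKO tumours carried Nkx3.1CreERT2, floxed alleles that include Smad4L/L, and Pygo2L/L. DKO tumours carried the same Cre and the other floxed alleles, without floxed Pygo2. Nkx3.1CreERT2 is a tamoxifen-activated Cre driven from the Nkx3.1 locus in prostate epithelium, so its target was the epithelium and not the immune or stromal cells. There were 2 TKO libraries and 2 DKO libraries, and the design text mentions 10 and 17 weeks after tamoxifen without tying a library to either. The labels give no ages and do not tie the 2 replicates of a genotype to different mice. The p-values below therefore rest on differences among libraries that may be technical. Tumours were dissociated with enzymes for 1 h at 37 °C, red cells were lysed, and Annexin V was used to deplete dying cells before droplet capture.

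HSP70 proteins bind exposed hydrophobic stretches of unfolded clients in a cycle driven by ATP. J-domain proteins such as Dnajb1 and Dnaja1 bring clients and start hydrolysis, and HSP110 proteins such as Hsph1 release the nucleotide and so reset the cycle. HSP90 proteins take partly folded clients, many of them kinases and steroid receptors, and small heat shock proteins such as Hspb1 hold unfolded proteins in a state that can be refolded. Hspa8 and Hsp90ab1 are made in most cells without stress, whereas Hspa1a, Hspa1b, Hsph1 and Dnajb1 are induced when heat shock factor 1 (HSF1) trimers bind arrays of inverted repeats of the unit nGAAn. Warm enzymatic dissociation is a known inducer of the same genes in cell suspensions.

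The sequences before the gene starts are shown because the repeat unit of HSF1 binding sites can be read in them. RefSeq promoters (GRCm38.p6) were at hand for 6 of the 9 members. The repeat was searched in 2 arrangements: GAANNTTC, in which the units meet head to head, and TTCNNGAA, in which they meet tail to tail. Either word reads the same on both strands, and the windows run from 250 bases before to 50 bases after the start. The 250 bases before the start are printed 5′ to 3′ on the strand of the gene, in lower case, with the matches in capitals, for the inducible pair at chr17:34972157-34972406 (Hspa1a, minus strand) and chr17:34959239-34959488 (Hspa1b, minus strand) and for the small heat shock protein at chr5:135887669-135887918 (Hspb1, plus strand).

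Hspa1a: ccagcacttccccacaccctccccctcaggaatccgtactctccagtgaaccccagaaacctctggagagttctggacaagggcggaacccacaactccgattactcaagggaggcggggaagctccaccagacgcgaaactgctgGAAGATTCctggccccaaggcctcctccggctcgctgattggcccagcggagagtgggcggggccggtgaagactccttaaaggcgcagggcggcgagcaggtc

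Hspa1b: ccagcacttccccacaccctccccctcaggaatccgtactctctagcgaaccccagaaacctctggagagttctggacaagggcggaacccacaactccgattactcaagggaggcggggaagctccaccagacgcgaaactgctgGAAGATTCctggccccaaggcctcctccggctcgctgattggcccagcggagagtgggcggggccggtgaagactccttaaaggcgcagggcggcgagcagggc

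Hspb1: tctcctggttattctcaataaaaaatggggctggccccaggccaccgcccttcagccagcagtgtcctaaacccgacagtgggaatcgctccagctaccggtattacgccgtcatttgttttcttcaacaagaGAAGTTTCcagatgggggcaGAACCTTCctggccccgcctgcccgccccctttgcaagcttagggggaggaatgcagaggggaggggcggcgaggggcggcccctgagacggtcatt

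Of these 250 bases, 3 differ between Hspa1a and Hspa1b, and each carries the head-to-head word once, beginning 104 bases before the start. Hspb1 carries it at 117 and at 97 bases before the start. Among 32851 mouse promoter windows of the same length, 7.86% hold the head-to-head word, 8.52% hold the tail-to-tail word, and 0.6% hold both sharing 3 bases, which is a run of 3 units. Hsph1 has such a run just after the start, in both of its windows. Dnajb1 had no match in either of its 2 windows, and Dnaja1 had a head-to-head match in 1 of 3. These are matches of letters, not measured binding.

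**Figure D1:**
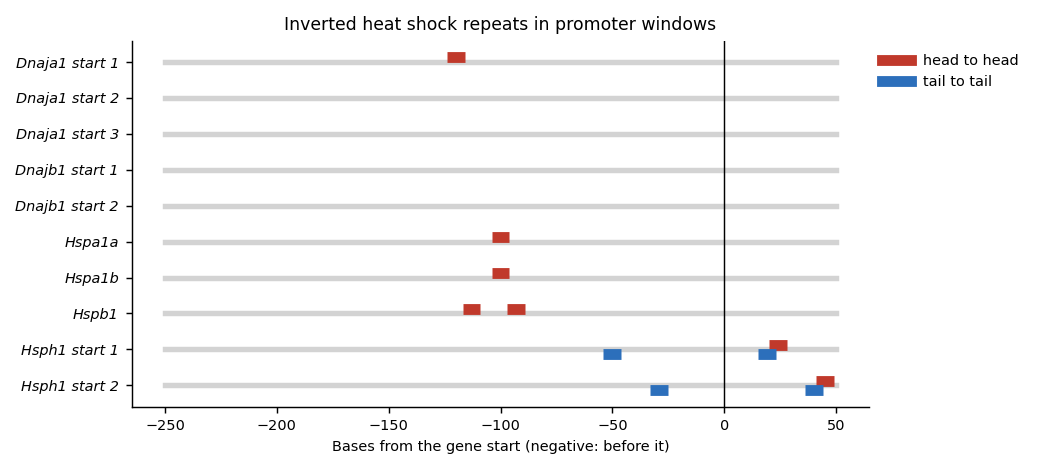
Repeat pairs in the promoter windows of the members, placed in bases from the gene start, with one row per window. Head-to-head and tail-to-tail pairs are drawn in different colours. Hspa1a and Hspa1b carry a single pair at the same place, 104 bases before the start.

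Hspa1a (chr17:34969190-34972156, minus strand) and Hspa1b (chr17:34956436-34959238, minus strand) each have 1 exon and lie beside each other (GRCm38, GENCODE). Their coding sequences are 99.4% identical over 1926 aligned bases, with 11 differences, so reads from the coding part could be split between them. The 3′ untranslated regions, where this 3′ assay reads most, are 47.3% identical, and their longest shared run is 24 bases. The division of counts between the pair is uncertain as far as reads fall in the coding part, and the share of such reads was not measured. The other members lie on separate loci: Hspa8 at chr9:40800984-40810087, Hsp90aa1 at chr12:110690605-110702728, Hsp90ab1 at chr17:45567775-45573271, Hspb1 at chr5:135887919-135889563, Hsph1 at chr5:149614287-149636376, Dnajb1 at chr8:83608193-83612653 and Dnaja1 at chr4:40722150-40737149.

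The libraries kept 1208 and 797 cells (TKO) and 617 and 759 cells (DKO), with 18360201 and 10505183 unique molecular identifiers (UMIs) in TKO and 9167770 and 14660012 in DKO. No cell barcode was shared between libraries, and in every cell the hashtag of its own library was the highest. The hashtag of a library was taken as the one with the largest sum in it, so this does not check the labels. Clusters were named from marker lists, and 6 classes held at least 20 cells in every library: T- and NK-like (TKO 359 and 310, DKO 113 and 231 cells), dendritic-like (TKO 105 and 64, DKO 43 and 55), epithelial-like (TKO 52 and 26, DKO 35 and 88), macrophage- and monocyte-like (TKO 71 and 42, DKO 35 and 32), neutrophil-like (TKO 207 and 183, DKO 138 and 201) and fibroblast-like (TKO 58 and 29, DKO 29 and 41). The summed level of the 13 neutrophil markers was 49120 to 73320 UMIs per 1000000 UMIs (CPM) in neutrophil-like cells and at most 2464 CPM in the other classes, and the 15 epithelial markers summed to 13170 to 15470 CPM in epithelial-like cells and at most 834 CPM elsewhere. The 10 monocyte markers did not separate their class. They summed to 7856 to 10780 CPM in macrophage- and monocyte-like cells and reached 11630 CPM in neutrophil-like cells. The 12 macrophage markers summed to 6806 to 21100 CPM in macrophage- and monocyte-like cells and at most 686 CPM elsewhere. Pygo2 was counted at 25 and 4 UMIs in TKO epithelial-like cells, against 10 and 33 UMIs in DKO epithelial-like cells, which is 16.0 and 7.24 CPM against 8.96 and 8.70 CPM. The groups overlap, and since the floxed part of Pygo2 is not given and a 3′ count need not lie in it, these counts do not check the labels.

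Levels are given as CPM of all UMIs of a class in a library, so that a value is a share of RNA: fewer cells with the RNA and less RNA per cell cannot be told apart in it. Epithelial-like cells had the highest mean level of 8 of the 9 members, macrophage- and monocyte-like cells that of Hspa8. Hspb1, the small heat shock protein, separated the classes most: over the 4 libraries it averaged 1378 ± 870 CPM in epithelial-like and 768 ± 188 CPM in fibroblast-like cells (SD, n = 4), against 26.3 ± 4.85 CPM in neutrophil-like and 10.6 ± 6.41 CPM in dendritic-like cells. The lowest fibroblast-like library, 563 CPM, lay far above the highest neutrophil-like one, 32.8 CPM.

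Dnajb1, a J-domain partner of the inducible HSP70s, split the classes at the same place. It averaged 393 ± 226 CPM in epithelial-like and 365 ± 60.7 CPM in fibroblast-like cells, against 83.4 ± 14.96 CPM in T- and NK-like cells (SD, n = 4), and the libraries of the upper 2 classes did not overlap those of the other 4. Dnaja1, another J-domain protein, showed no such gap, with class means between 381.5 CPM in macrophage- and monocyte-like and 579 CPM in epithelial-like cells and overlapping libraries between all neighbours.

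The constitutive chaperones set neutrophil-like cells apart at the low end of the classes compared. Hspa8 averaged 391 ± 95.9 CPM there, against 1021 ± 327 CPM in epithelial-like cells, the next class up, and 1934 ± 307 CPM in macrophage- and monocyte-like cells (SD, n = 4). Hsp90ab1, the constitutive HSP90, averaged 208 ± 114 CPM in neutrophil-like cells, against 1071 ± 237 CPM in the next class up and 1935 ± 490 CPM in epithelial-like cells. Neither gene's neutrophil-like libraries overlapped those of any other class compared. Unnamed cells were outside this comparison, although 2 of their 5 clusters scored highest for neutrophil markers. Among cells below 20 Hspa1a UMIs, the 744 unnamed cells had Hspa8 at 659 CPM and Hsp90ab1 at 613 CPM. The 721 neutrophil-like cells had 361 and 183 CPM. Levels of those 2 clusters alone are not given here, so the gap is described only for the class as named. Hsp90aa1, the inducible HSP90, ran only from 356 ± 135 to 776 ± 479 CPM, and no neighbouring classes in its order separated.

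The inducible HSP70s varied widely among libraries of 1 class. Hspa1a averaged 454 ± 303 CPM in epithelial-like, 257.5 ± 383 in neutrophil-like, 184 ± 81.0 in fibroblast-like, 105 ± 34.6 in macrophage- and monocyte-like, 59.4 ± 26.7 in dendritic-like and 44.8 ± 29.0 CPM in T- and NK-like cells (SD, n = 4), and every pair of neighbours in this order overlapped. Hspa1b had the same order of classes, with means from 615 ± 351 to 47.3 ± 28.7 CPM. Hsph1 averaged 111.5 ± 109 CPM in epithelial-like cells and 31.1 ± 54.0 CPM in neutrophil-like cells, again with overlap at each step.

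**Figure D2:**
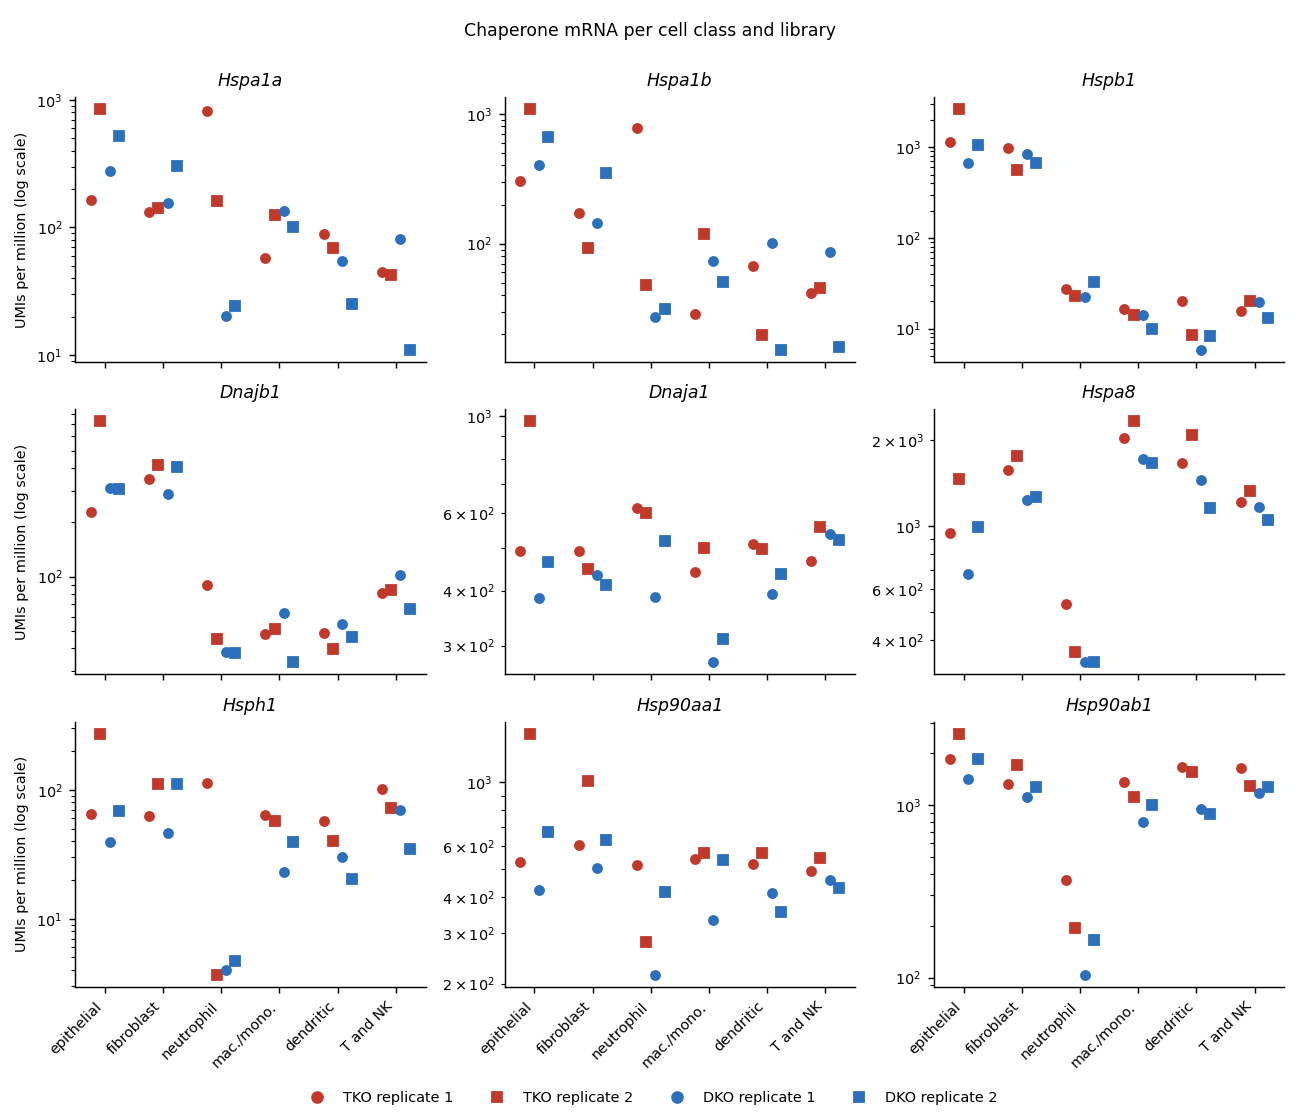
CPM of each member (log axis) in the 6 cell classes, with one point per library, TKO drawn left of DKO. Hspb1 and Dnajb1 are high in epithelial-like and fibroblast-like cells, Hspa8 and Hsp90ab1 are low in neutrophil-like cells, and Hspa1a in neutrophil-like cells spreads from 20.2 to 824 CPM.

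In neutrophil-like cells, Hspa1a stood at 824 and 162 CPM in the TKO libraries, against 20.2 and 24.2 CPM in the DKO libraries, a ratio of the means of 22.2. Both TKO libraries lie above both DKO libraries, and TKO replicate 1 lies far above TKO replicate 2. This contrast chose the members, so it has no test. The share of cells with any Hspa1a UMI was 16.9% and 17.5% in TKO, against 13.8% and 12.9% in DKO, with exact 95% binomial intervals of 12.1 to 22.7% and 12.3 to 23.8% in TKO and 8.50 to 20.7% and 8.63 to 18.4% in DKO, which overlap. These intervals cover counting error only, and no class here is known to lack the gene, so the share that free RNA gives was not measured. After thinning every cell to 1000 UMIs the shares were 5.88% and 4.40% in TKO and 0.73% and 1.51% in DKO.

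The UMIs behind the ratio sat in few cells. In TKO replicate 1, 7 cells held 1116 of 1154 Hspa1a UMIs, with 215, 210, 201, 189, 166, 94 and 41 UMIs each. In TKO replicate 2, 1 cell held 141 of 176 UMIs, and no cell of the DKO libraries had more than 2. Without these 8 cells of at least 20 UMIs, a limit chosen after the counts were seen, Hspa1a stood at 27.9 and 32.3 CPM in TKO and 20.2 and 24.2 CPM in DKO, a ratio of 1.36. All 7 cells of TKO replicate 1 belonged to 1 cluster, led by the interferon-induced genes Rsad2, Slfn4 and Ifit2, and the cell of TKO replicate 2 to the other neutrophil-like cluster, led by Retnlg.

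**Figure D3:**
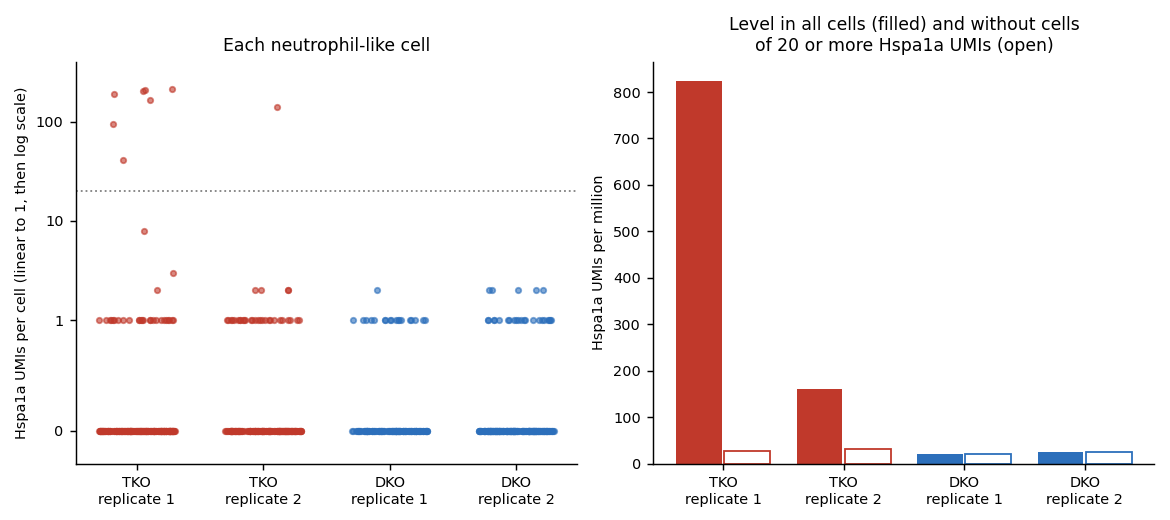
Left, Hspa1a UMIs in each neutrophil-like cell (axis linear to 1, then logarithmic), one point per cell, in the TKO and then the DKO libraries; right, Hspa1a CPM per library in all cells (filled bars) and without the cells of at least 20 UMIs (open bars). The 8 cells above the dotted line of 20 UMIs are 7 cells of TKO replicate 1 and 1 of TKO replicate 2.

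Taken as a pool, these 8 cells were also high in most of the other members, though not every gene was found in every cell. Hspa1b, the neighbouring HSP70 gene, gave 1008 UMIs in them and was found in all 8. Hsph1 stood at 3293 CPM in the 8 cells and 5.51 CPM in the other 721 neutrophil-like cells, and Bag3, a nucleotide exchange partner of HSP70 induced by HSF1, at 2725 and 6.99 CPM. Hsp90aa1 stood at 5814 CPM in the 8 cells against 321 CPM in the others, Hsp90ab1 at 4088 against 183 CPM, Hspa8 at 4474 against 361 CPM, Dnaja1 at 2339 against 523 CPM and Dnajb1 at 908 against 46.6 CPM. Hspb1 did not follow, with 1 UMI in the 8 cells, 22.7 CPM against 26.7 CPM. The Hsph1 and Bag3 UMIs came from 37.5% of the 8 cells.

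The cells still carried neutrophil RNA, with 11 of 13 neutrophil markers detected and a summed marker level of 40810 CPM, against 58270 CPM in the other neutrophil-like cells. Epithelial markers summed to 114 CPM in them and 142 CPM in the others, with 10 of 15 at 0. Fibroblast markers summed to 1067 and 825 CPM. The median depth was 5390 UMIs in the 8 cells and 6421 in the others, and the median mitochondrial share 0.313% and 0.18%. No doublet caller was used, and the part of RNA from other cells or of the library in these counts was not tested.

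Cells of at least 20 Hspa1a UMIs were not limited to TKO. Among cells of the 5 unnamed clusters, 5 and 1 such cells were found in the TKO libraries and 3 and 1 in the DKO libraries. Of these 10 cells, 3 of TKO replicate 1 and 3 of DKO replicate 1 were in the cluster led by Gpnmb, Atp6v0d2 and Cd36, which did not score highest for neutrophil markers. The other 4, 2 and 1 of TKO and 1 of DKO replicate 2, were in the cluster led by Ltc4s and Siglecf, 1 of the 2 unnamed clusters that scored highest for neutrophil markers. Over neutrophil-like cells and those 2 clusters, cells of at least 20 UMIs made up 1.82% and 0.763% in TKO and 0.0% and 0.355% in DKO, that is 9 of 494 and 2 of 262 cells in TKO and 0 of 305 cells, which allows a share of up to 0.984%, and 1 of 282 cells in DKO. With the Gpnmb cluster and all other unnamed cells added, the shares were 2.26% and 0.652% in TKO and 0.867% and 0.334% in DKO, and the genotypes overlapped. With the 2 clusters put back into the neutrophil-like class, the ratio of means of Hspa1a was 7.40.

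In the same neutrophil-like cells 8 of the 9 members passed the filter on low counts. Both TKO libraries lay above both DKO libraries for 6 of these 8, beside 26.7% of the 6320 genes that passed. Hspa1a, whose contrast chose the members, and its neighbour Hspa1b are among the 6. The count was therefore raised in part by the choice and is a description only. Hspa1b stood at 780 and 47.8 CPM in TKO, against 27.2 and 31.2 CPM in DKO, and Hsp90ab1 at 371 and 194 CPM in TKO, against 104 and 165 CPM in DKO. Without the 8 cells the genotypes overlapped for Hspa1b, with 83.8 and 21.2 CPM in TKO. They also overlapped for Hspa8, with 427.8 and 334.6 CPM in TKO and 334.7 and 333.1 CPM in DKO. Hsp90ab1 stayed apart, with 249.9 and 193.6 CPM in TKO. Dnajb1 did too, with 62.5 and 45.2 CPM in TKO and 38.3 and 37.45 CPM in DKO. For Dnaja1 the values were 618 and 602 CPM in TKO and 387 and 520 CPM in DKO, and here the 8 cells mattered little: without them they were 560 and 604 CPM in TKO and 387 and 520 CPM in DKO. Hsph1 stood apart in TKO replicate 1 alone, with 112 and 3.67 CPM in TKO and 4.03 and 4.68 CPM in DKO, and without the 8 cells with 8.82 and 3.69 CPM in TKO.

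In fibroblast-like cells, the other class that entered the choice, Hspa1a stood at 133 and 142 CPM in TKO and 155 and 305 CPM in DKO, a ratio of 0.599. Both TKO libraries lay below both DKO libraries, and DKO replicate 2 stood highest. In DKO replicate 2, 10 of 41 cells had at least 20 UMIs and held 565 of 715, and 90.2% of its cells had an Hspa1a UMI. The median depth in that library was 44050 UMIs per fibroblast-like cell, against 6384 per neutrophil-like cell. The limit of 20 UMIs is therefore a lower share of a cell here and does not mark rare cells. Without cells of at least 20 UMIs Hspa1a stood at 69.5 and 85.8 CPM in TKO and 51.1 and 97.7 CPM in DKO. The ratio was 1.04, and the genotypes overlapped. Hspa8 lay at 1575 and 1766 CPM in TKO, against 1233 and 1260 CPM in DKO. Here 3 of 9 members were higher in both TKO libraries, beside 16.0% of the 10839 genes that passed the filter on low counts.

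Whether the chaperones differed between genotypes was tested in the 4 classes that did not choose them, with edgeR's quasi-likelihood test on summed UMIs and Benjamini-Hochberg adjustment over all genes. No member passed an adjusted p of 0.05 in any of them. The background was as low: the test called 0.036% of 11115 genes in T- and NK-like cells, 0.0331% of 9074 in dendritic-like cells, 0.0% of 9768 in epithelial-like cells and 0.0264% of 7585 in macrophage- and monocyte-like cells. At an unadjusted p under 0.05 there were 1, 6, 1 and 2 of the 9 members in these classes, in that order, beside 5.45%, 6.87%, 5.68% and 7.12% of all genes (606, 623, 555 and 540 genes). DESeq2 called 0, 1, 0 and 0 members, beside 0.239%, 0.293%, 0.41% and 0.642% of genes (26, 24, 40 and 43 genes). A p that misses the threshold with 2 libraries a genotype does not show that the genotypes are alike.

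The dendritic-like cells gave the widest pattern. Hsp90ab1 stood at 1675 and 1556 CPM in TKO, against 956 and 888 CPM in DKO, and the genotypes did not overlap. The log2 fold change was 0.86 ± 0.11 (SE, n = 2 libraries each), with an edgeR adjusted p of 0.0738, and DESeq2 gave an adjusted p of 0.000404. The edgeR adjusted p was 0.0491 without TMM factors and 2.66e-08 with no filter on low counts. Without TKO replicate 1 it was 0.00793, without TKO replicate 2 it was 0.00146, and without DKO replicate 1 or DKO replicate 2 it was 0.1997 or 0.178, so the call depends on the settings. With each cell counted in its cluster, Hsp90ab1 stood at 1739 and 1647 CPM in TKO and 989 and 886 CPM in DKO in the Cd209a cluster, and at 1469 and 1390 CPM in TKO and 1128 and 673 CPM in DKO in the Siglech cluster. In the cluster led by Fscn1 and Ccr7, genes of migrating dendritic cells, the genotypes overlapped, with 1559 and 1075 CPM in TKO and 630 and 1355 CPM in DKO.

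**Figure D4:**
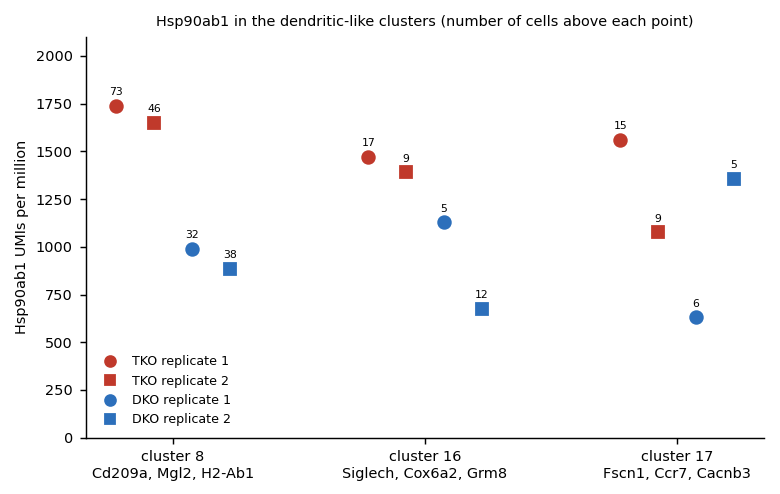
Hsp90ab1 CPM in the 3 dendritic-like clusters, one point per library with its number of cells above it, TKO left of DKO. In the Cd209a and Siglech clusters both TKO libraries lie above both DKO libraries, and in the Fscn1 cluster DKO replicate 2 lies between the TKO libraries.

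Other members of the dendritic-like class lay the same way. Hspa8 stood at 1657 and 2090 CPM in TKO, against 1454 and 1158 CPM in DKO (log2 fold change 0.57 ± 0.17, edgeR adjusted p 0.504). Hsp90aa1 stood at 520 and 569 CPM in TKO, against 411 and 355 CPM in DKO (0.56 ± 0.14, edgeR adjusted p 0.395). Hsph1, the HSP110 that partners HSP70, stood at 57.2 and 40.0 CPM in TKO, against 29.9 and 20.2 CPM in DKO (1.03 ± 0.29, edgeR adjusted p 0.436). Hspa1a stood at 88.7 and 68.8 CPM in TKO, against 54.7 and 25.2 CPM in DKO (1.06 ± 0.34, edgeR adjusted p 0.563). Of its UMIs, 4 cells of at least 20 UMIs held 187 of 265 in TKO replicate 1 and 1 cell 52 of 122 in TKO replicate 2, and without such cells the levels were 27.0 and 40.1 CPM in TKO and 37.2 and 25.2 CPM in DKO, which overlap. Hspb1 and Dnaja1 lay the same way, with log2 fold changes of 1.08 and 0.32, whereas Hspa1b and Dnajb1 had -0.29 and -0.14 and overlapping genotypes. Hspb1 rested on 60 and 15 UMIs in TKO and 7 and 13 in DKO. A single cell of TKO replicate 1 held 25 of its 60 UMIs. The Hspb1 levels were 20.1 and 8.46 CPM in TKO and 5.81 and 8.21 CPM in DKO, so TKO replicate 2 and DKO replicate 2 were close. In this class 7 of 9 members were higher in both TKO libraries, beside 15.8% of genes tested, and the median log2 fold change over the members was 0.57, against 0.00 over all genes.

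Depth and RNA quality differed little between the genotypes in dendritic-like cells, with a median of 26830 and 27380 UMIs per cell in TKO and 26520 and 27440 in DKO and a median mitochondrial share of 2.33% and 2.24% in TKO and 2.20% and 2.37% in DKO. The 13 dendritic markers summed to 2843 and 2854 CPM in TKO and 2363 and 2632 CPM in DKO, and the 12 macrophage markers to 683 and 319 CPM in TKO and 686 and 348 CPM in DKO. Their part in the result was not tested.

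The log2 fold change of Hsph1 was positive in all 4 classes tested, as were those of Hspa8, Hsp90aa1, Hsp90ab1 and Hspb1. None of them passed the edgeR test. In T- and NK-like cells Hsph1 stood at 102 and 72.8 CPM in TKO, against 69.5 and 35.0 CPM in DKO, and its log2 fold change was 0.83 ± 0.32 (edgeR adjusted p 0.867). Cells with an Hsph1 UMI made up 52.6% and 43.9% in TKO and 27.4% and 29.4% in DKO, and after thinning to 1000 UMIs 7.80% and 5.81% in TKO and 3.54% and 2.17% in DKO. The mix of T- and NK-like clusters was unlike between libraries. The cluster led by Gzmk, Epha3 and Cd8a held 80 and 33 cells in TKO and 3 and 23 in DKO. The cluster led by Cd163l1, Trdc and Trdv4 held 27 and 11 cells in TKO and 26 and 24 in DKO. The part of this mix in the values of T- and NK-like cells was not tested. In macrophage- and monocyte-like cells the levels were 63.5 and 57.1 CPM in TKO and 22.9 and 39.6 CPM in DKO, with a log2 fold change of 0.91 ± 0.34 and an edgeR adjusted p of 0.615. The make-up of this class differed between genotypes: its 12 macrophage markers summed to 14450 and 6806 CPM in TKO and 17830 and 21100 CPM in DKO. At clustering resolution 2.0 a cluster led by C1qa, C1qc and C1qb held 17 and 4 cells in TKO and 20 and 15 in DKO, and a cluster led by Plcb1, F13a1 and Lyz2 held 54 and 38 cells in TKO and 14 and 17 in DKO. The part of this in the members' values was not tested.

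Hspa1a had log2 fold changes of both signs over the 4 classes. T- and NK-like cells had 44.4 and 42.3 CPM in TKO, against 81.7 and 10.9 CPM in DKO (log2 fold change 0.12 ± 1.01, edgeR adjusted p 0.999), so that the DKO libraries enclosed the TKO libraries. In DKO replicate 1, 1 cell held 57 of the 107 UMIs. In TKO replicate 1, 2 cells held 122 of 219 UMIs, and in TKO replicate 2, 2 cells held 71 of 163. Without DKO replicate 1 the log2 fold change was 1.97, and without DKO replicate 2 it was -0.91. Macrophage- and monocyte-like cells had 57.8 and 126 CPM in TKO and 135 and 101 CPM in DKO, with a log2 fold change of -0.48 ± 0.39 and an edgeR adjusted p of 0.870.

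In epithelial-like cells, the class that the Cre was aimed at, TKO replicate 2 carried the highest level of every member. Recombination in these cells was not shown. Hspa1a stood at 165 and 850 CPM in TKO, against 278.5 and 522 CPM in DKO, and 1 cell of TKO replicate 2 held 191 of its 470 Hspa1a UMIs. Hsph1 stood at 64.5 and 273 CPM in TKO, against 39.4 and 68.8 CPM in DKO, and 1 cell of TKO replicate 2 held 108 of its 151 UMIs. Hspb1 stood at 1138 and 2649 CPM in TKO, against 678 and 1048 CPM in DKO (log2 fold change 1.10 ± 0.43, edgeR adjusted p 0.836). In TKO replicate 2 the 2 highest cells held 60.9% of its 1464 Hspb1 UMIs, and for Dnaja1 49.1% of 538 UMIs. Without cells of at least 20 Hspb1 UMIs its levels were 331 and 319.5 CPM in TKO and 176 and 245 CPM in DKO. Hspb1 and Dnaja1 were the 2 of 9 members whose TKO libraries both lay above both DKO libraries, beside 16.5% of genes. The cells also differed in depth, with a median of 10170 and 8202 UMIs per cell in TKO and 20130 and 21760 in DKO. At clustering resolution 2.0 a cluster of deeper cells led by Psca, Krt14 and Krt15 held 16 and 3 cells in TKO and 18 and 39 in DKO, and the other epithelial-like cluster, led by Gm26917, held 35 and 23 cells in TKO and 17 and 49 in DKO. Immediate early genes summed to 12930 and 18660 CPM in TKO and 12420 and 12500 CPM in DKO, highest in TKO replicate 2 as the members were. The part of depth, cluster make-up or these genes in the values was not tested.

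In T- and NK-like cells 4 of 9 members were higher in both TKO libraries, beside 18.0% of genes, and in macrophage- and monocyte-like cells 5 of 9, beside 22.5%. The 4 in T- and NK-like cells were Hspa8, Hsp90aa1, Hsp90ab1 and Hsph1, and Dnaja1 joined the same 4 in macrophage- and monocyte-like cells. Median log2 fold changes over the members were 0.18 in T- and NK-like, 0.57 in epithelial-like and 0.29 in macrophage- and monocyte-like cells, against 0.01, 0.02 and -0.01 over all genes. The members share cells, libraries and in part regulation, so these are descriptions of 1 set and not independent counts.

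**Figure D5:**
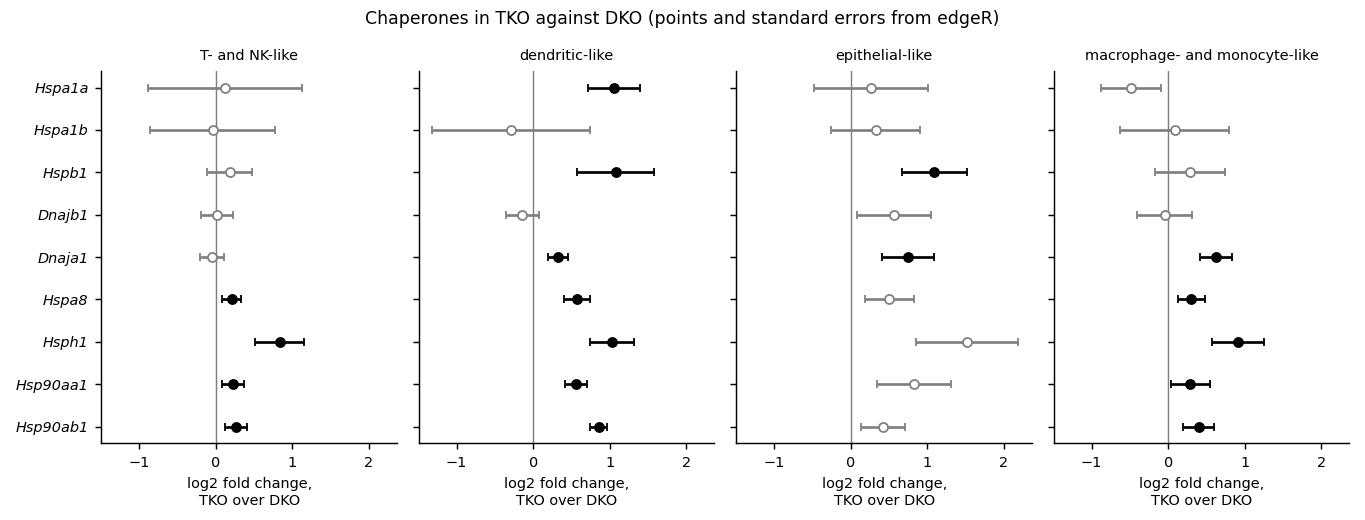
Log2 fold change of TKO over DKO for each member in the 4 classes tested, with SE bars from edgeR (n = 2 libraries each). Filled black points mark members whose TKO libraries both lie above both DKO libraries. No point passed an adjusted p of 0.05.

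The difference of the genotype effect between the 4 tested classes was itself tested with group-by-class terms and the library as a block. No member passed, none had an unadjusted p under 0.05, and 0.0245% of 12230 genes were called. The smallest member p was that of Dnaja1 (edgeR adjusted p 0.912), and for Hspa1a the adjusted p was 0.962. The contrast of neutrophil-like with fibroblast-like cells was not tested because it chose the members.

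The division of the inducible pair overlapped between most classes. Hspa1a made up 35.1 to 43.9% of Hspa1a plus Hspa1b UMIs in epithelial-like cells and 51.5 to 66.9% in macrophage- and monocyte-like cells, and these ranges do not overlap. The ranges of the remaining classes overlapped both. They were 40.4 to 51.5% in T- and NK-like, 35.3 to 77.7% in dendritic-like and 43.8 to 60.4% in fibroblast-like cells. In neutrophil-like cells the share was 51.4% and 77.2% in TKO and 42.6% and 43.7% in DKO. The means of TKO minus DKO were 5.16 percentage points in T- and NK-like, 18.4 in dendritic-like, -3.0 in epithelial-like and -6.59 in macrophage- and monocyte-like cells. Two-sided exact permutation tests gave p = 0.667, 0.667, 0.667 and 1.0, where 2 against 2 libraries cannot go below 0.3333.

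Of 105 other genes in 10 lists of the chaperone network and of immediate early genes, 0 passed the edgeR test in a class, with 51 of 357 gene tests at an unadjusted p under 0.05, beside the 5.45% to 7.12% of all genes given above, and 1 call by DESeq2, in macrophage- and monocyte-like cells. The chaperones of the endoplasmic reticulum leaned to TKO: 16 of 18 genes had a positive log2 fold change in T- and NK-like, 17 of 18 in dendritic-like, 17 of 18 in epithelial-like and 13 of 17 in macrophage- and monocyte-like cells, with medians of 0.35, 0.43, 0.40 and 0.47. Over all genes 50.8%, 50.1%, 51.7% and 48.9% were positive. Hsp90b1, the HSP90 of that compartment, stood at 435 and 384 CPM in TKO and 254 and 281 CPM in DKO in T- and NK-like cells, and at 570 and 496 CPM in TKO and 358 and 387 CPM in DKO in dendritic-like cells. Its log2 fold changes were 0.61 ± 0.15 and 0.56 ± 0.14, with edgeR adjusted p-values of 0.446 and 0.349.

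HSP90 co-chaperones were positive in 9 of 11, 8 of 11, 8 of 11 and 10 of 11 genes in T- and NK-like, dendritic-like, epithelial-like and macrophage- and monocyte-like cells. J-domain proteins outside the members showed no such lean, with 7 of 11, 4 of 9, 4 of 10 and 2 of 9 genes positive in the same order. Immediate early genes, which dissociation also induces, were positive in 5 of 19, 11 of 20, 17 of 20 and 9 of 20 genes. They summed to 5443 and 4845 CPM in TKO and 5847 and 4970 CPM in DKO in dendritic-like cells, where the genotypes overlapped, while in epithelial-like cells, as given above, both TKO libraries lay above both DKO libraries.

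Over the 24 sums of class and library, with 6568 genes of at least 20 CPM on average, the pattern of Hspa1a was most like that of Bag3 (Pearson r 0.769), Plin3 (0.738), Slc35f5 (0.729), Atf3 (0.71) and Hist1h2bc (0.705) on the log2 CPM scale. The sums share libraries and classes, and the values are descriptions. Among the members, Hspb1 and Dnajb1 had r = 0.938 and Hspa1a and Hspa1b 0.911, while Hspa1a and Hspa8 had 0.078.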

How the data were processed

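Cells of 2 TKO and 2 DKO prostate tumour libraries were hashtagged, combined and captured with a 3′ assay, per the labels. The authors aligned reads with Cell Ranger 7.0.0 and STAR to mm10, per the submitters' processing notes, and deposited UMI counts per gene and cell, which are whole numbers and not normalised. Of 3508 barcodes, 3381 passed the filters (200 or more genes, no more than 20% mitochondrial UMIs). Clusters (scanpy 1.11.5, leidenalg 0.10.2, 2000 variable genes without the members, 30 components, 20 neighbours, resolution 1.0) were named from marker lists. The naming limits were set after the data were seen: a score over 0.5 and 3 markers with a log2 difference of 1.0 or more. Of 23 clusters 5 stayed unnamed. Doublets were not called. Counts were summed per library and class and tested with edgeR 4.0.16 (TMM, filterByExpr, robust quasi-likelihood, Benjamini-Hochberg over all genes, adjusted p 0.05), after the script was tested on simulated data. DESeq2 1.42.0, no TMM factors, no filter, a replicate block, other clustering settings and leaving out each library were the alternatives. CPM are raw UMIs per 1000000 UMIs of the class without TMM factors. Gene counts of the 4 libraries differed from each other by more than sampling noise. The text names the 9 members in each class, the 3 genes of each list with the highest level over all cells where they are shown, list genes that pass the test, and the 5 genes most like Hspa1a; Bag3 and the cells of at least 20 UMIs were described after their values were seen. The members and lists were chosen with earlier results of these data known. Not every allele of the genotypes is named here.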

Additional observations from a re-analysis of the deposited data

Results flagged for a closer look

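Hspa1a lay in opposite directions between genotypes in 3 classes, with every library of a class on the same side. The ratio of mean CPM in TKO over DKO was 1.97 in dendritic-like and 22.2 in neutrophil-like cells and 0.599 in fibroblast-like cells. This difference between classes was not tested, since the neutrophil-like and fibroblast-like contrasts chose the members. Without cells of at least 20 Hspa1a UMIs the ratios were 1.07 in dendritic-like, 1.36 in neutrophil-like and 1.04 in fibroblast-like cells. The genotypes then overlapped in dendritic-like and fibroblast-like cells, and the opposite directions were no longer seen. Dendritic-like and fibroblast-like cells are deeper than neutrophil-like cells, so the same limit is a lower share of their UMIs.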

How the results depend on the processing

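The neutrophil-like ratio of Hspa1a stayed above 1 under the alternatives run but varied in size: 8.63 at clustering resolution 2.0, 7.40 with the unnamed clusters that had at least 3 raised markers of a class put back into it, 1.36 without the cells of at least 20 UMIs (added after the data were seen, as were 1.07 in dendritic-like cells and 1.04 in fibroblast-like cells, where the ratio turned direction), and 7.29 to 37.2 when 1 library was left out. Genes called in T- and NK-like, dendritic-like, epithelial-like and macrophage- and monocyte-like cells were 26, 24, 40 and 43 with DESeq2 and 136, 228, 247 and 205 with no filter on low counts. Leaving out 1 library gave 1 to 68, 7 to 64, 0 to 90 and 2 to 86 genes, and 1 to 18 between classes. Without TMM factors 5 genes were called in dendritic-like cells. With no filter, 1, 5 and 1 members were called in T- and NK-like, dendritic-like and epithelial-like cells. In dendritic-like cells DESeq2, no TMM factors and the replicate block each called 1 member. Leaving out 1 library gave 0 to 1 members in T- and NK-like and 0 to 2 in dendritic-like cells, and 0 to 0 in epithelial-like and macrophage- and monocyte-like cells and between classes. For Hsp90ab1 in dendritic-like cells the log2 fold change stayed between 0.82 and 0.90 when a library was left out.

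The replicate numbers are not shown to pair the libraries: deviations of same-numbered libraries correlated at 0.0, 0.11, 0.087 and -0.038 over the 4 classes, with only 2 pairs. With the replicate block 9, 9 and 7 genes were called in T- and NK-like, dendritic-like and macrophage- and monocyte-like cells, and Hspa1b in T- and NK-like cells turned to 0.16, Hspa1a in epithelial-like cells to -0.02 and Hspa1b in macrophage- and monocyte-like cells to -0.15 on the log2 scale. Of 432 member values, 393 kept direction and side of the threshold, 14 passed it only under the alternative and 25 turned direction. Among these, DESeq2 gave -0.10 for Hspa1a and -0.01 for Dnajb1 in T- and NK-like cells, at most 10% mitochondrial UMIs gave -0.02 for Hspa1b and no TMM factors 0.02 for Dnajb1 in macrophage- and monocyte-like cells. Log2 fold changes with 1 library left out ran, in T- and NK-like cells, from -0.91 to 1.97 for Hspa1a, -0.96 to 1.42 for Hspa1b, -0.15 to 0.42 for Hspb1, -0.30 to 0.31 for Dnajb1 and -0.19 to 0.08 for Dnaja1. In dendritic-like cells Hspa1b ran from -1.41 to 1.58. In epithelial-like cells Hspa1a ran from -1.19 to 0.95, Hspa1b from -0.71 to 0.89 and Dnajb1 from -0.34 to 1.09, and in macrophage- and monocyte-like cells Hspa1a from -1.09 to 0.02, Hspa1b from -1.17 to 0.86 and Dnajb1 from -0.43 to 0.53. Where 1 library is left of a genotype, it is assumed to vary like the other. The Hspa1a share of the pair ran from 0.95 to 9.38 points in T- and NK-like, 4.85 to 32.0 in dendritic-like, -7.37 to 1.37 in epithelial-like and -14.3 to 1.11 in macrophage- and monocyte-like cells. Thinned to 1000 UMIs per cell, the difference in Hsph1 detection was 3.95 points in T- and NK-like and 4.11 in dendritic-like cells. The cause of these changes was not tested. With 2 libraries a genotype and 26 to 359 cells a class and library, the depth limits what single low genes can show.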

Other observations

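Classes with fewer than 20 cells in a library entered no comparison. In B- and plasma-like cells Hsp90ab1 stood at 1513 and 2225 CPM in TKO and 606 and 195 CPM in DKO, over 22 and 12 cells in TKO and 10 and 9 in DKO, and Hspa8 at 582 and 1280 CPM in TKO and 391 and 133.5 CPM in DKO. The median depth of these cells was 9631 and 10670 UMIs in TKO and 12960 and 70570 in DKO. In TKO replicate 2, 5 cells held 470 of the 518 Hsp90ab1 UMIs. The part of depth or of single cells in these values was not tested. Endothelial-like cells, 3 and 4 in TKO and 4 and 2 in DKO, had Hspb1 at 604.5 and 565 CPM in TKO and 605 and 364 CPM in DKO. Mast-like cells had Dnaja1 at 2095 and 2188 CPM in TKO and 676 and 2984 CPM in DKO over 7 and 3 cells in TKO and 2 and 2 in DKO.

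The unnamed cluster led by Gpnmb, Atp6v0d2 and Cd36 had Hspa1a at 1878 and 33.8 CPM in TKO and 1008 and 23.9 CPM in DKO, with 3 cells of at least 20 UMIs in TKO replicate 1 and 3 in DKO replicate 1. At clustering resolution 2.0, 25 neutrophil-like cells and 7 unnamed cells formed a cluster of 32 cells, with 19 and 3 from TKO and 6 and 4 from DKO. Its Hspa1a level was 2228 and 37.5 CPM in TKO and 43.0 and 24.7 CPM in DKO, and Hspa1a was detected in 8 of the 32 cells.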
